A study of Mus musculus with 11 samples.

Results

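A set of 10 genes of the blood vessel lining was followed across laser-captured pieces of the fetal mouse urinary tract. The genes, Pecam1, Kdr, Flt1, Tek, Tie1, Emcn, Cd34, Esam, Eng and Vwf, were taken by name as a measure of the vessels carried along in each captured compartment. Every probe set that the array annotation assigns to 1 of these 10 genes alone was used, which gave 14 probe sets of 45101 on the array. Of these, 10 probe sets of 7 genes passed the filter on low values (at least 2 arrays with a signal over that array's median). The other 4, the only probe sets of Pecam1, Tie1 and Vwf and 1 of the 4 probe sets of Flt1, did not pass and are described from their values.

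All captures came from wild-type CD-1 mice of unknown sex at E15.5, a stage given as days of embryonic development (Theiler stage 23), untreated in every group. The compartments were cortical collecting duct (2 arrays), early proximal tubule (3 arrays), ureteral smooth muscle (3 arrays) and urothelium, the lining of the urinary outflow tract (3 arrays). Each array held RNA from a pool of approximately 50 sections from 5 kidneys, amplified in 2 rounds, so that its values are averages over all cells in the captured pieces. In such bulk material, fewer endothelial cells and less RNA per endothelial cell cannot be told apart. The labels do not say whether pools came from separate animals, and p-values then measure only how far these pools differ, a spread that may be technical.

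The endothelium forms the inner wall of all vessels. The receptor tyrosine kinases Kdr (VEGFR2) and Flt1 (VEGFR1) bind VEGF, Kdr carrying most of the growth signal and Flt1 acting largely as a trap for the ligand. Tek (TIE2) is the receptor for angiopoietins, and Tie1 is its partner without a well established ligand of its own. Eng (endoglin) is a co-receptor for ligands of the TGF-beta family. Pecam1 and Esam are adhesion molecules of endothelial junctions, Emcn (endomucin) and Cd34 are sialomucins of the cell surface, and Vwf is the von Willebrand factor stored for haemostasis. Cd34 is not restricted to endothelium, being made also by stromal fibroblasts and by blood progenitors. In the fetal kidney, vessels lie between the tubules and enter the glomeruli, while the ureter wall carries vessels in its connective tissue and muscle coats.

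Promoters are shown for Cd34 and Flt1, which carried the calls made among these genes, and for Kdr, the other VEGF receptor. The values of Kdr went with those of the brightest Flt1 probe set. The sequences are those of RefSeq (GRCm38.p6), 250 bases before to 50 after the start that the promoter reference uses, read 5′ to 3′ on the gene's strand. The Cd34 window spans the start of its gene record (194938821). The Flt1 and Kdr windows lie inside their gene records, which begin farther out on the minus strand, at 147726438 and 75979072. The bases at those outer starts are not shown. They lie at chr1:194938571-194938870 (plus strand, Cd34), chr5:147725962-147726261 (minus strand, Flt1) and chr5:75978406-75978705 (minus strand, Kdr). Capitals mark AGGAAG or, on the opposite strand, CTTCCT, a form of the core bound by ETS factors, the family with the best known roles in endothelial genes.
Cd34: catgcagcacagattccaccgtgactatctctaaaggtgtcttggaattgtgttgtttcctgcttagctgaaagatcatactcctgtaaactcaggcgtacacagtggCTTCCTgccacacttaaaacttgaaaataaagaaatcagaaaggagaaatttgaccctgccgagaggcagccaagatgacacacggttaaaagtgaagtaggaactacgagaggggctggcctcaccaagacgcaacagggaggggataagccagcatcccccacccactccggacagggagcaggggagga
Flt1: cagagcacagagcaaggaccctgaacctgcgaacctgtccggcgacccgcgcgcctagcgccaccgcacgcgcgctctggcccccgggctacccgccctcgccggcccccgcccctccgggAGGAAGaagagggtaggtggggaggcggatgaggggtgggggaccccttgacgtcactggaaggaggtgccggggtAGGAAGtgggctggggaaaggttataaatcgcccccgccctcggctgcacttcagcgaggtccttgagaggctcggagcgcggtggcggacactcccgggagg
Kdr: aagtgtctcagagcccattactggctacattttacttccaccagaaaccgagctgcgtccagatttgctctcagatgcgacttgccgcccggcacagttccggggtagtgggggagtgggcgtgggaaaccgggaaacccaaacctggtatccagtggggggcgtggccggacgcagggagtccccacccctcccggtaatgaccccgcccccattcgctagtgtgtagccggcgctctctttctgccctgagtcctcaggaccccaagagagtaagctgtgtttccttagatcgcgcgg
The motif was present once in the Cd34 window and at 2 places in the Flt1 window, and these letters did not occur in the Kdr window. Only this form was searched. The shorter letters TTCC can be read in the Kdr window, so the search does not show that Kdr lacks an ETS core. Of the 10 genes, 7 were in the promoter table, and 5 of those 7 (Flt1, Tie1, Emcn, Cd34 and Eng) held a match. Among all 32851 promoters of the same 300 bases, 35.4% held one, and a match is a description of the letters and not a bound site.

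Compartments were compared on log2(signal + 55) with limma, fitted over all 29565 probe sets that passed the filter. A probe set was called when its Benjamini-Hochberg adjusted p within a comparison was under 0.05 and its log2 difference at least 1. There were 10 comparisons, 4 of a compartment against the mean of the other 3 and 6 between pairs. The identity of the captures was checked on marker lists by compartment means: 10 of 10 collecting duct markers, 10 of 10 proximal tubule markers, 10 of 10 smooth muscle markers and 9 of 9 tested urothelium markers were highest in their own compartment. On single arrays, the smooth muscle list summed to signals of 69410, 44747 and 13606 in urothelium, against 3139 to 6415 in proximal tubule. Urothelium replicate 3 had a lower sum of urothelium markers (50176) than replicates 1 and 2 (142691 and 135193). Its sum of collecting duct markers was higher (52947, against 28699 and 39477). Whether captures were mixed was not tested. Of the 11 arrays, 10 resembled an array of their own compartment most, whereas collecting duct replicate 2 was nearest to urothelium replicate 3 (r = 0.893 over the tested probe sets). Median signals per array ranged from 247 to 401, and all arrays had the same trimmed mean of 1500.

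Few of the tested endothelial probe sets differed between compartments beyond the spread of the pools. Cd34 was higher in ureteral smooth muscle than in the mean of the other compartments, and Flt1, by 1 of its probe sets, was lower in early proximal tubule. The receptors Kdr and Tek, the co-receptor Eng, the mucin Emcn and the junction molecule Esam were not called in any of the 10 comparisons. Against the mean of the other 3 compartments, 1 of the 10 probe sets was called higher in ureteral smooth muscle, where 3.95% of all probe sets were, and 0 were called lower (5.57% of all). In early proximal tubule 1 of 10 was called lower (3.83% of all) and 0 higher (5.98% of all). By limma, 0 of 10 were called in cortical collecting duct (0.693% of all, either way), with 0 at an unadjusted p under 0.05 (10.2% of all). In urothelium limma likewise called 0 of 10 (1.05% of all, either way), with 0 at an unadjusted p under 0.05 (14.1% of all). A single call among 10 probe sets does not set these genes apart from the background shares.

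**Figure D1:**
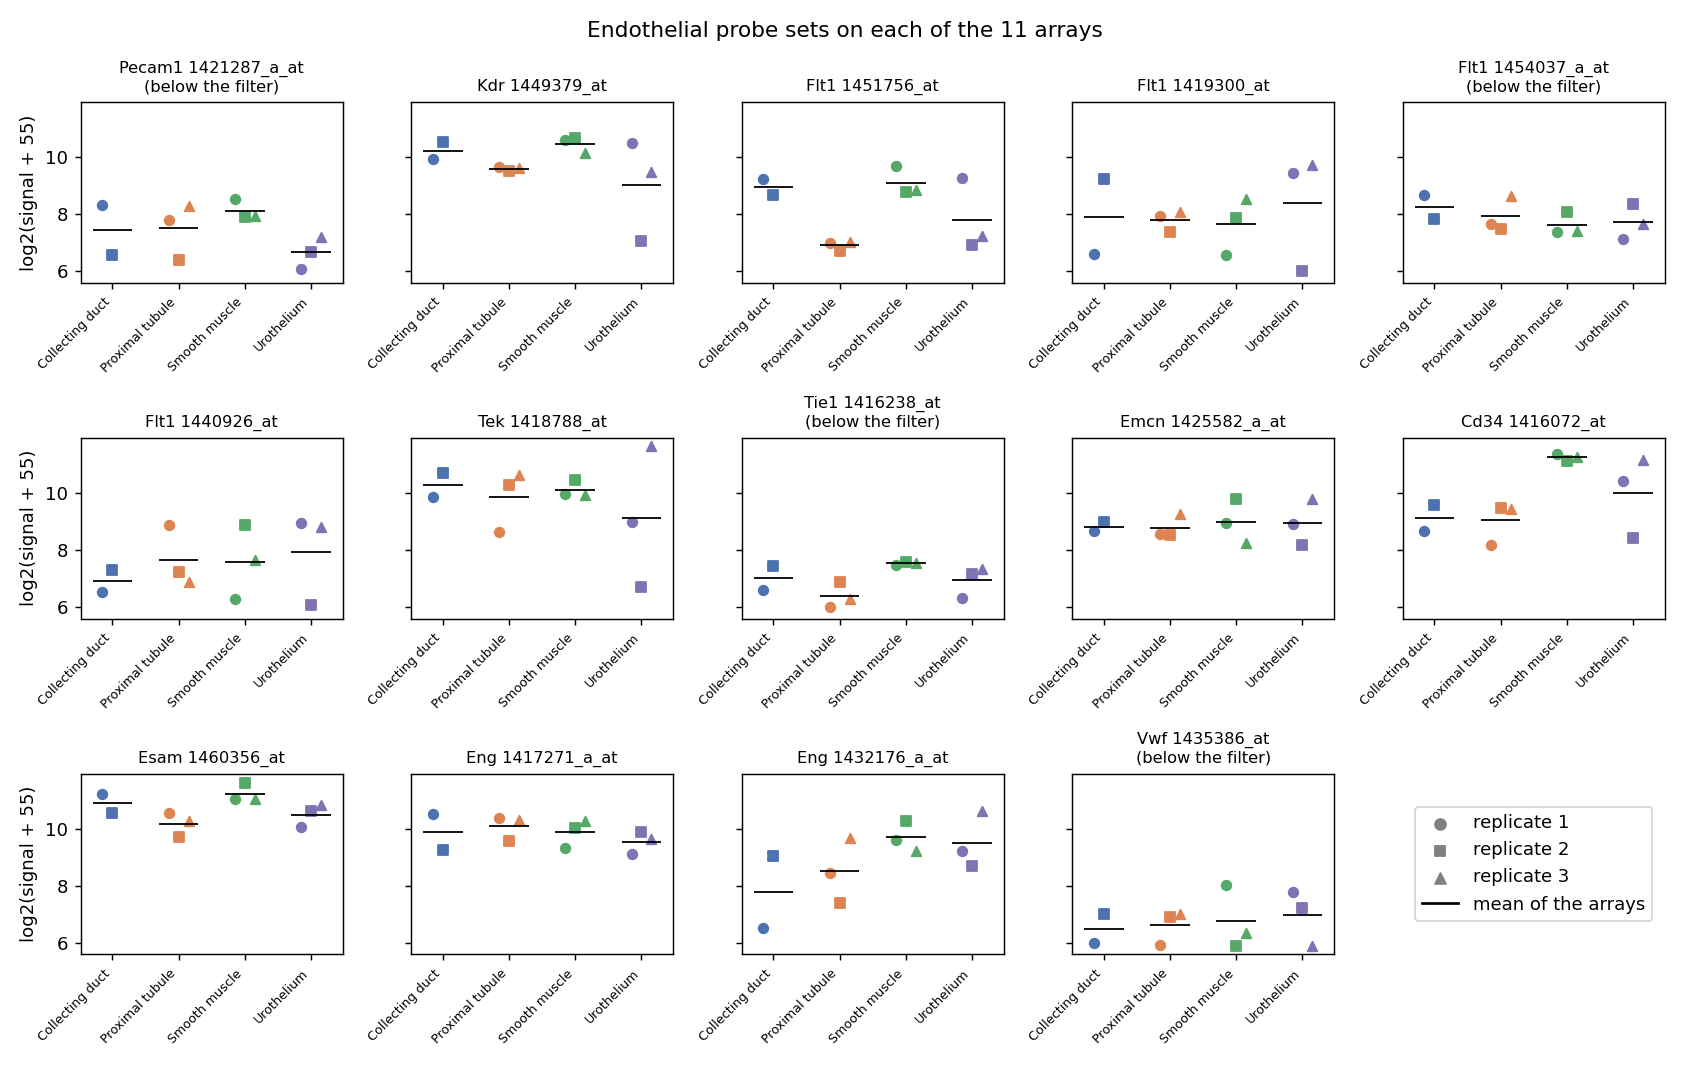
Level of each of the 14 endothelial probe sets as log2(signal + 55) on each of the 11 arrays, by compartment; symbols give the replicate and bars the mean of the 2 or 3 arrays. Cd34 lies at a mean of 11.26 in smooth muscle with its 3 arrays close together, while Kdr, Tek and Cd34 are spread widely over the 3 urothelium arrays.

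The VEGF receptors come first. Kdr (1449379_at) had signals of 936 and 1424 in cortical collecting duct, 754, 676 and 741 in early proximal tubule, 1505, 1576 and 1084 in ureteral smooth muscle, and 1411, 80 and 658 in urothelium. The tubule arrays lay close together and below every array of collecting duct and smooth muscle, and the urothelium arrays were spread from 80 to 1411, with replicate 2 far below all the others. The order of the mean levels was smooth muscle (10.48 ± 0.28, SD, n = 3), collecting duct (10.24 ± 0.41, n = 2), proximal tubule (9.60 ± 0.08, n = 3) and urothelium (9.02 ± 1.76, n = 3) on the log2 scale. No neighbours in that order differed in the limma test, with adjusted p = 0.93, 0.807 and 0.666. The difference of smooth muscle from the mean of the others was 0.85 ± 0.56 (log2, SE, adjusted p = 0.424) and that of urothelium was -1.08 ± 0.56 (adjusted p = 0.414). Without urothelium replicate 2, the urothelium value was -0.11 ± 0.41 (adjusted p = 0.951).

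Flt1, the other VEGF receptor, was represented by 4 probe sets. Its brightest, 1451756_at, had signals of 549 and 356 in collecting duct, 74, 51 and 75 in proximal tubule, 778, 383 and 413 in smooth muscle, and 570, 67 and 96 in urothelium. All tubule arrays were below all collecting duct and smooth muscle arrays, and they overlapped with urothelium replicate 2 alone. The tubule mean was 6.92 ± 0.17 (log2, SD, n = 3), below the 8.96 ± 0.39 of collecting duct (n = 2), the 9.12 ± 0.51 of smooth muscle (n = 3) and the 7.82 ± 1.28 of urothelium (n = 3). Proximal tubule was lower than the mean of the other 3 by a log2 difference of -1.71 ± 0.48 (SE, adjusted p = 0.0388). Smooth muscle exceeded proximal tubule by 2.19 ± 0.57 (adjusted p = 0.0218). The tubule signals were close to the pseudocount of 55, so that the size of both differences is set in part by it: the excess of smooth muscle was 2.71 with a pseudocount of 11.7 and 1.44 with 190, and the tubule difference from the other 3 was -2.13 and -1.11, the last not called (adjusted p = 0.0508). The difference of tubule from collecting duct was of the same size, -2.04 ± 0.64, and did not pass the test (adjusted p = 0.134).

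These calls were close to the threshold. The call of Flt1 1451756_at against the other 3 compartments was lost without collecting duct replicate 1 or 2 (adjusted p = 0.0768 and 0.0535), without proximal tubule replicate 1, 2 or 3 (0.0895, 0.148 and 0.109) and without smooth muscle replicate 1 (0.058). The call against smooth muscle was lost without proximal tubule replicate 2 or 3 (0.0754 and 0.0544) and without smooth muscle replicate 1 (0.0836). Without urothelium replicate 1, Flt1 was called in 3 further comparisons, higher in smooth muscle than in the mean of the others (1.46 ± 0.35, adjusted p = 0.0225) and than in urothelium (2.03 ± 0.47, 0.0358), and lower in tubule than in collecting duct (-2.04 ± 0.47, 0.0393). Among arrays that share the date-like part of their labels, whose meaning the labels do not state, tubule differed from collecting duct by -1.80 and -2.23 in the 2 batches that hold both. In the batch that also holds smooth muscle, smooth muscle exceeded tubule by 1.76. With that label as a fixed block the difference of tubule from the other 3 was -1.36 and not called (adjusted p = 0.34).

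The other probe sets of Flt1 did not follow the brightest one. Flt1 1419300_at had signals of 42 and 546 in collecting duct, 190, 113 and 218 in proximal tubule, 39, 180 and 322 in smooth muscle, and 641, 9 and 792 in urothelium. Its tubule difference from the other 3 was -0.18 ± 0.77 (log2, SE, adjusted p = 0.92), with a 95% interval from -1.85 to 1.48. Flt1 1440926_at ranged from 12 in urothelium replicate 2 to 439 in urothelium replicate 1, and its tubule difference was 0.18 ± 0.69 (adjusted p = 0.909). These 2 probe sets were both low on urothelium replicate 2 and rose and fell together over the 11 arrays (r = 0.73), whereas neither went with 1451756_at (r = 0.04 and -0.03). The last, 1454037_a_at, was above the array median on 1 of 11 arrays, with signals from 86 to 355. The lower level of Flt1 in the tubule thus rests on 1 of its 3 tested probe sets.

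Tek, the angiopoietin receptor, had signals of 873 and 1639 in collecting duct, 344, 1191 and 1547 in proximal tubule, 939, 1357 and 916 in smooth muscle, and 456, 51 and 3185 in urothelium. Urothelium held both the lowest and the highest array, and the groups overlapped in full. The spread of Tek within compartments was larger than that of 98.5% of all tested probe sets (residual SD 1.47, log2). None of the comparisons of Tek was called, and the difference of smooth muscle from proximal tubule, 0.26 ± 0.94, had a 95% interval from -1.78 to 2.29. Its partner Tie1 was above the array median on 0 of 11 arrays, with signals of 42 and 119 in collecting duct, 9, 62 and 23 in proximal tubule, 125, 137 and 135 in smooth muscle, and 25, 89 and 106 in urothelium. The 3 smooth muscle arrays were the highest of the 11, in a narrow range. In a fit with no filter over 45037 probe sets, Tie1 differed between smooth muscle and tubule by 1.16 ± 0.42 (log2, SE, adjusted p = 0.123), the smallest adjusted p of the 40 tests on the 4 probe sets below the filter.

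Eng, the TGF-beta co-receptor, had 2 tested probe sets that differed in behaviour. Eng 1417271_a_at had signals of 1423 and 568 in collecting duct, 1277, 720 and 1232 in proximal tubule, 595, 1001 and 1196 in smooth muscle, and 501, 894 and 756 in urothelium. Its compartments overlapped, and its difference of smooth muscle from the other 3 was 0.04 ± 0.39 (log2, SE), with a 95% interval from -0.81 to 0.89. Eng 1432176_a_at had signals of 37 and 477 in collecting duct, 296, 116 and 764 in proximal tubule, 737, 1189 and 544 in smooth muscle, and 539, 364 and 1523 in urothelium. Here every smooth muscle array lay above both collecting duct arrays, with a difference of 1.93 ± 0.83 that was not called (adjusted p = 0.263). The correlation between the 2 probe sets over the 11 arrays was -0.29.

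Among the surface mucins, Cd34 stood apart from Emcn. Cd34 (1416072_at) had signals of 356 and 712 in collecting duct, 236, 664 and 649 in proximal tubule, 2611, 2177 and 2414 in smooth muscle, and 1311, 290 and 2262 in urothelium. The smooth muscle arrays were above all collecting duct and tubule arrays, and only urothelium replicate 3 reached into their range. The mean levels were 11.26 ± 0.13 (log2, SD, n = 3) in smooth muscle, 10.01 ± 1.42 (n = 3) in urothelium, 9.13 ± 0.64 (n = 2) in collecting duct and 9.05 ± 0.74 (n = 3) in proximal tubule. Smooth muscle exceeded the mean of the other 3 by 1.86 ± 0.53 (SE, adjusted p = 0.0432), with a 95% interval from 0.72 to 3.01. It exceeded proximal tubule by 2.21 ± 0.64 (adjusted p = 0.0343). The differences from collecting duct (2.12 ± 0.71, adjusted p = 0.129) and from urothelium (1.25 ± 0.64, adjusted p = 0.385) were not called.

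The Cd34 call, too, was close to the threshold. Leaving out any single array of collecting duct, proximal tubule or smooth muscle ended the call against the other 3 compartments (adjusted p from 0.0513 to 0.141), while it held without any single urothelium array (0.0186 to 0.0492). Leaving out any single array of proximal tubule or smooth muscle ended the call between these compartments (0.06 to 0.119). Without urothelium replicate 2, Cd34 was also called higher in smooth muscle than in collecting duct (2.12 ± 0.53, adjusted p = 0.0401). Within label batches, Cd34 was higher in smooth muscle than in urothelium by 1.47 and 0.97 in the 2 batches that hold both. In the batch that holds all 3 compartments, it was higher in smooth muscle than in collecting duct by 2.44 and than in proximal tubule by 2.94. With that label as a fixed block the difference against the other 3 was 2.21 and not called (adjusted p = 0.117).

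Emcn (1425582_a_at) had signals of 354 and 449 in collecting duct, 322, 317 and 565 in proximal tubule, 436, 843 and 250 in smooth muscle, and 426, 239 and 827 in urothelium. The compartments overlapped, and their means on the log2 scale lay within 0.21 of each other. The difference of smooth muscle from the mean of the others was 0.14 ± 0.43 (log2, SE), with a 95% interval from -0.79 to 1.07.

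Of the junction molecules, Esam varied least. Esam (1460356_at) had signals of 2326 and 1474 in collecting duct, 1457, 782 and 1197 in proximal tubule, 2091, 3100 and 2058 in smooth muscle, and 1014, 1521 and 1775 in urothelium. Every smooth muscle array was above every tubule and urothelium array, and every tubule array was below both collecting duct arrays. Its residual SD of 0.40 was larger than that of 14.1% of tested probe sets, the smallest among the 10. Even so, no comparison of Esam was called: smooth muscle minus proximal tubule was 1.06 ± 0.42 (log2, SE, adjusted p = 0.121). Pecam1, the other junction molecule, was above the array median on 1 of 11 arrays, with signals of 263 and 41 in collecting duct, 170, 30 and 262 in proximal tubule, 313, 186 and 189 in smooth muscle, and 14, 48 and 94 in urothelium. The 3 urothelium arrays were below all smooth muscle arrays. Vwf was above the array median on 0 of 11 arrays, with signals from 4 to 205, and both ends of that range were smooth muscle arrays. By limma 0 of the 40 tests on the 4 low probe sets were called, with 4 at an unadjusted p under 0.05. Pecam1, Tie1 and Vwf, which are among the defining genes of endothelium, were thus above the array median on at most 1 of the 11 arrays.

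**Figure D2:**
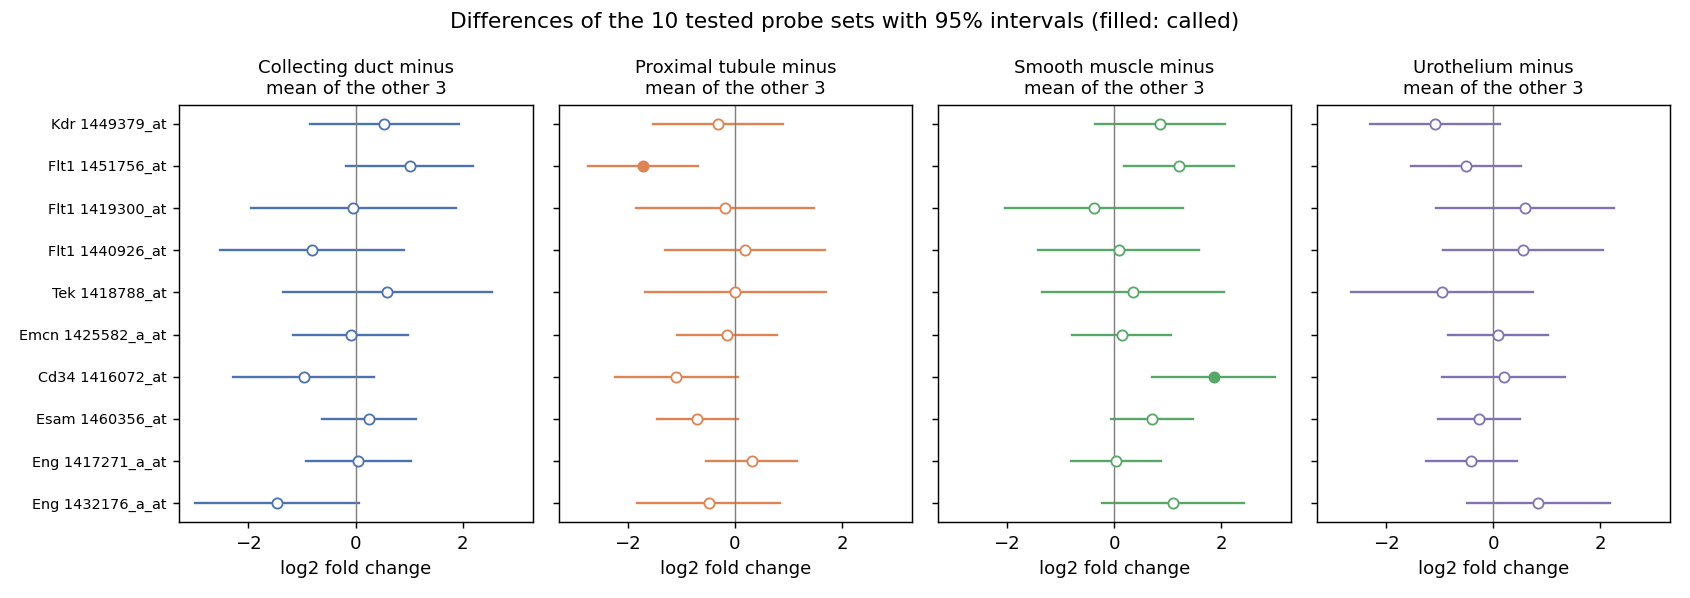
Log2 fold change of each of the 10 tested probe sets in 1 compartment against the mean of the other 3, from limma; lines give the 95% interval and filled points a call. The filled points are Flt1 1451756_at in proximal tubule (-1.71) and Cd34 in smooth muscle (1.86), and most intervals span 0.

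Considered side by side, 9 of the 10 probe sets were on the positive side in ureteral smooth muscle against the mean of the other 3, with a median difference of 0.54 (log2). Over all tested probe sets 47.2% were positive and the median was -0.05. The members' median was 0.35 with 6 of 10 positive without smooth muscle replicate 2, and 0.31 with 7 of 10 positive without urothelium replicate 2. In early proximal tubule 3 of 10 were positive with a median of -0.25, where 52.6% of all were positive with a median of 0.05. Leaving out single arrays moved the tubule median from -0.60 (without urothelium replicate 2) to -0.08 (without collecting duct replicate 2). With the label batch as a fixed block it was -0.93 with 1 of 10 positive. The medians were 0.01 in cortical collecting duct and -0.09 in urothelium, with 5 of 10 positive in each. Both medians changed sign with the arrays used: the urothelium median was 0.36 with 6 of 10 positive without urothelium replicate 2, and -0.35 with 2 of 10 positive without urothelium replicate 3. With the fixed block they were -0.29 in collecting duct and 0.26 in urothelium. When single arrays were left out, the collecting duct median lay between -0.07 and 0.13. These comparisons share their arrays, and only the calls given above passed the test.

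Between pairs of compartments, the members separated most often in smooth muscle against proximal tubule. There 4 of 10 had all smooth muscle arrays above all tubule arrays (Kdr, Flt1 1451756_at, Cd34 and Esam), against 14.7% of all probe sets, and 2 were called higher, Flt1 1451756_at and Cd34 (5.64% of all), with 0 lower (8.34% of all). In smooth muscle against collecting duct 2 of 10 did not overlap (Cd34 and Eng 1432176_a_at, 15.2% of all). There limma called 0 (4.66% of all, either way), with 2 at an unadjusted p under 0.05 (16.1% of all). In smooth muscle against urothelium Esam alone did not overlap (10.2% of all), and limma called 0 (4.55% of all, either way), with 1 at an unadjusted p under 0.05 (15.7% of all). Collecting duct arrays were all above tubule arrays in 3 of 10 (Kdr, Flt1 1451756_at and Esam, 13.1% of all). Between these 2 compartments limma called 0 (2.77% of all, either way), with 1 at an unadjusted p under 0.05 (13.8% of all). Urothelium against collecting duct gave 0 calls in limma (0.112% of all, either way) and 0 at an unadjusted p under 0.05 (10.4% of all). Urothelium against proximal tubule likewise gave 0 calls (7.19% of all, either way) and 0 at an unadjusted p under 0.05 (22.7% of all).

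The 3 urothelium pools differed widely in the average of these genes. Averaged over the 7 tested genes, each by its brightest probe set and taken as the deviation from its mean over the 11 arrays, the level was 0.03, -1.32 and 0.39 (log2) in the 3 urothelium arrays. It was 0.15 and 0.18 in collecting duct, -0.59, -0.47 and -0.07 in proximal tubule, and 0.55, 0.77 and 0.38 in smooth muscle. Smooth muscle thus lay at or near the top, tubule below 0, and urothelium replicate 2 lowest of all. That array was the lowest of the 11 for 3 of the 7 genes, whereas urothelium replicate 3, which carries the same date-like label, was level with smooth muscle. Without urothelium replicate 2, the Tek difference of urothelium from the other 3 turned from -0.96 ± 0.79 to 0.24 ± 0.67 (log2, SE), neither of them called.

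The other endothelial genes, a list of transcription factors, receptors and junction proteins such as Cdh5, Sox17 and Robo4, had a like order of arrays. Their mean deviation was -0.27, -0.81 and 0.77 in the urothelium arrays, 0.29, 0.66 and 0.20 in smooth muscle, -0.17 and 0.15 in collecting duct, and -0.58, -0.36 and 0.11 in proximal tubule. Urothelium replicate 2 was again the lowest array and replicate 3 the highest. Of the 34 tested genes of this list, 2 were called higher in smooth muscle against the mean of the other 3 and 0 lower, where 4.75% and 7.47% of all genes were. The called genes were Mcam, an adhesion molecule also made by smooth muscle (2.16 ± 0.39, adjusted p = 0.00347), and S1pr1, a lipid receptor (1.32 ± 0.38, adjusted p = 0.0433). The list's median difference was 0.52, with 25 of 34 genes positive. In proximal tubule 1 of 34 was called lower (4.66% of all genes), the transcription factor Tal1 (-1.45 ± 0.42, adjusted p = 0.0442). In collecting duct and in urothelium limma called 0 of the 34 (0.693% and 1.05% of all probe sets, either way). At an unadjusted p under 0.05 there were 0 and 2 (10.2% and 14.1% of all probe sets).

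**Figure D3:**
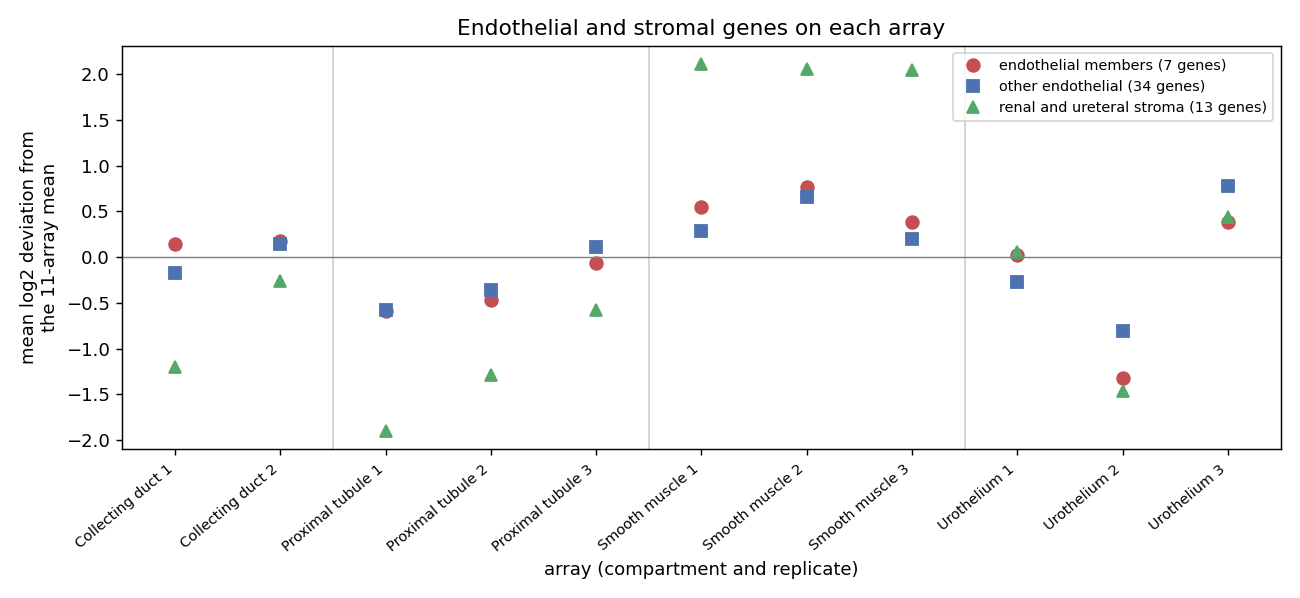
Mean log2 deviation from the 11-array mean, on each array, of the 7 tested endothelial genes, of 34 other endothelial genes and of 13 stromal genes. The 3 smooth muscle arrays lie above 0 for all lists, and urothelium replicate 2 is the lowest array for the endothelial lists at -1.32 and -0.81.

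Markers of other cells differed between the same arrays. Of 13 stromal genes, 12 were called higher in smooth muscle (4.75% of all genes), including the matrix gene Dcn (4.72 ± 0.49, log2, SE, adjusted p = 6.69e-05). Of the 13, 0 were called lower (7.47% of all genes). In proximal tubule, where Flt1 1451756_at was lower, 6 of the 13 were called lower (4.66% of all genes) and 0 higher (7.35% of all). Those called lower included Postn, a matrix protein (-2.85 ± 0.42, adjusted p = 0.000824), and the median over the list was -1.35. Their summed signal was 592435 to 691786 in smooth muscle, 72105 and 140182 in collecting duct, 51799 to 101677 in proximal tubule and 102627 to 194526 in urothelium. On the deviation scale the stroma was at 0.05, -1.47 and 0.44 in the urothelium arrays, the same order as the endothelial genes. Across the 11 arrays the correlation of the 7-gene average with the stromal list was 0.80, with the other endothelial list 0.89 and with the pericyte list 0.61. Without urothelium replicate 2 the values were 0.88, 0.86 and 0.47. The highest value was that with the list of vascular ligands, co-receptors and related factors, 0.94 (0.89 without urothelium replicate 2). Not all genes of that list act on the receptors followed here. Its single genes ranged from 0.91 (Epas1) to -0.60 (Efna1), with Vegfa at -0.48 and Angpt1 at -0.20. Markers of the captured compartments went in both directions: the smooth muscle list was at 0.43 and the proximal tubule list at -0.41, and at 0.71 and -0.88 without urothelium replicate 2. The collecting duct and urothelium lists were at -0.06 and -0.20, and at -0.10 and 0.31 without that array. These points share compartment and capture, and the part of the stroma or of the captured tissue in the levels of Cd34 or of the other genes was not tested.

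Blood cells were followed as well, since Cd34, Eng, Pecam1 and Vwf are also made by some of them. The 9 tested leukocyte genes had summed signals of 2917 to 3179 in smooth muscle, 2880 to 6211 in urothelium, 4663 to 8216 in proximal tubule and 6059 and 11312 in collecting duct. Of the listed leukocyte genes, 6 (Cd68, Fcer1g, Aif1, C1qa, C1qb and C1qc) did not pass the filter. The 8 tested platelet genes summed to 3342 to 4463 in smooth muscle, 3520 to 4503 in urothelium, 2004 to 3578 in tubule and 3214 and 3229 in collecting duct. Of these, Itgb3, an integrin also made by other cells, was called higher in smooth muscle (2.97 ± 0.49, adjusted p = 0.00171), and the platelet glycoprotein gene Gp9 higher in proximal tubule (1.68 ± 0.49, adjusted p = 0.0488). The macrophage receptor gene Mrc1 was called lower in smooth muscle (-1.58 ± 0.45, adjusted p = 0.0429), and the erythroid factor gene Klf1 higher in proximal tubule (1.88 ± 0.43, adjusted p = 0.0151). No other gene of the 3 blood lists was called against the mean of the other 3 compartments in limma. Over all genes, 4.75% were called higher and 7.47% lower in smooth muscle, and 7.35% higher and 4.66% lower in proximal tubule. The 5 tested red cell genes summed to 9315 to 14541 in smooth muscle, 13728 to 21809 in urothelium, 2968 to 19542 in tubule and 10112 and 10333 in collecting duct. Every urothelium array was above both collecting duct arrays, and the other compartments overlapped with urothelium. Of the listed red cell genes, 4 (Hba-a1, Hba-x, Epb42 and Rhag) did not pass the filter. The correlations of the 7-gene average with the leukocyte, platelet and red cell lists were 0.09, -0.03 and 0.07, and -0.29, 0.19 and 0.16 without urothelium replicate 2. The part of blood cells in the levels was not tested.

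In the list of vascular ligands, co-receptors and related factors, 4 of 22 tested genes were called higher in smooth muscle against the mean of the other 3. Of the 22, 2 were called lower, where 4.75% and 7.47% of all genes were called higher and lower. Vegfd, a VEGF-family ligand, was higher by 3.25 ± 0.37 (log2, SE, adjusted p = 0.000134), and Pgf, placental growth factor and a ligand of Flt1, by 2.99 ± 0.51 (adjusted p = 0.00206). Angptl4 and Nrp1, a VEGF co-receptor, were the others called higher (adjusted p = 0.0443 and 0.0466). Angpt1, the activating ligand of Tek, was lower in smooth muscle by -2.00 ± 0.41 (adjusted p = 0.00747), and the ephrin Efna1 by -1.21 ± 0.34 (adjusted p = 0.0406). In proximal tubule, Tgfbr3, a TGF-beta co-receptor, was lower by -2.49 ± 0.40 (adjusted p = 0.0017) and the oxygen-sensing factor Hif1a by -1.26 ± 0.32 (adjusted p = 0.0258), while Efna1 was higher by 1.16 ± 0.34 (adjusted p = 0.0489), where 4.66% of all genes were called lower and 7.35% higher. By limma 0 of 22 were called in collecting duct and in urothelium (0.693% and 1.05% of all probe sets, either way). At an unadjusted p under 0.05 there were 5 and 3 (10.2% and 14.1% of all probe sets).

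The subtype lists held few calls. Of 9 tested arterial, venous and Notch genes, the ephrin Efnb2 was called higher in collecting duct (2.63 ± 0.45, log2, SE, adjusted p = 0.0205; 0.801% of all genes) and lower in proximal tubule (-3.21 ± 0.39, adjusted p = 0.000253). Unc5b, a netrin receptor, was also lower in proximal tubule (-2.55 ± 0.38, adjusted p = 0.000872), so that 2 of 9 were called lower there (4.66% of all genes). Over the arrays, Efnb2 and Unc5b had correlations of 0.07 and 0.35 with the average of the tested endothelial members. Which cells of the captures carried these levels was not tested. Of 4 tested lymphatic genes, Pdpn, which epithelia also make, was called higher in urothelium (2.37 ± 0.43, adjusted p = 0.0202; 1.02% of all genes). Of 8 tested pericyte genes, limma called 0 in smooth muscle, where 4.75% of all genes were called higher and 7.47% lower. It likewise called 0 in collecting duct and urothelium (0.693% and 1.05% of all probe sets, either way). In smooth muscle, collecting duct and urothelium, 3, 1 and 2 were at an unadjusted p under 0.05 (22.1%, 10.2% and 14.1% of all probe sets). In proximal tubule Rgs5 was lower (-1.94 ± 0.50, adjusted p = 0.0278; 4.66% of all genes). Anpep, also an enzyme of the tubule brush border, was higher there (2.44 ± 0.37, adjusted p = 0.0011; 7.35% of all genes).

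The 7 tested genes did not vary as 1 block. Of their 21 pairs, 6 had a correlation above 0.5 over the 11 arrays and 5 were below 0, with a median of 0.36. Tek with Emcn gave 0.69, Kdr with Flt1 0.68 and Kdr with Tek 0.64. Urothelium replicate 2 set the last of these: without it Kdr with Tek was at -0.19, while Kdr with Flt1 was at 0.855 and Tek with Emcn at 0.63. Flt1 was taken here by its brightest probe set, 1451756_at, which the other tested Flt1 probe sets did not follow (r = 0.04 and -0.03). The pairs of those probe sets with Kdr were not computed. Eng by its brightest probe set, 1417271_a_at, was below 0 with every gene but Esam, and these were the 5 pairs below 0. The other tested probe set of Eng did not go with this one (r = -0.29). Its pairs with the other genes were not computed, so the pairs below 0 rest on the choice of probe set.

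**Figure D4:**
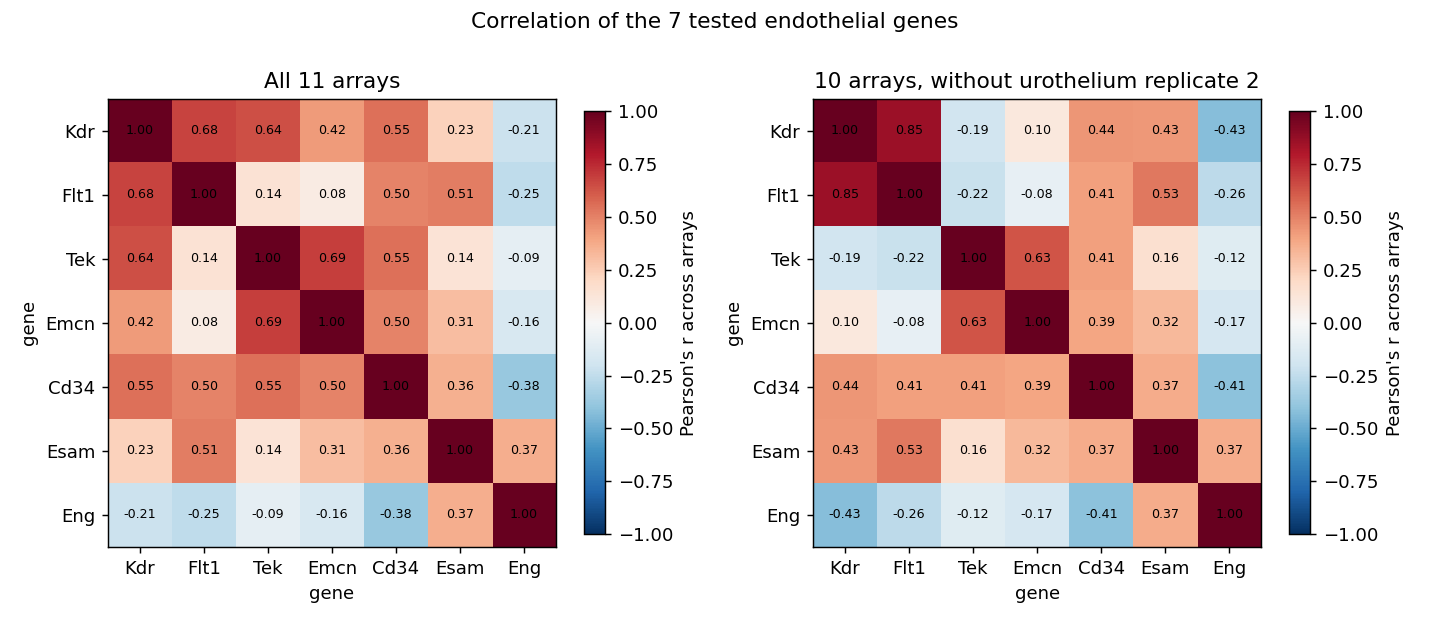
Pearson's r of log2(signal + 55) between the 7 tested endothelial genes, each by its brightest probe set, over all 11 arrays (left) and over 10 arrays without urothelium replicate 2 (right). Kdr with Flt1, the latter by probe set 1451756_at alone, goes from 0.68 to 0.855 and Kdr with Tek from 0.64 to -0.19. The Eng row, which shows probe set 1417271_a_at alone, is below 0 except with Esam.

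The genes whose values over the 11 arrays were most like the average of the 7 were found among 13607 other genes by Pearson's r. The first was Mmp16, a membrane-bound metalloproteinase (r = 0.95, 0.94 without urothelium replicate 2), followed by Timp3, a metalloproteinase inhibitor (0.95), the atypical cadherin Fat4 (0.94), She (0.94) and Mfap4, a matrix microfibril protein (0.94). Gnb4, Kcnd3, Ppic, Fam43a and Itga8 completed the first 10 at 0.93 to 0.94. Of these, She belongs to the list of other endothelial genes, Mfap4 to the stromal list and Itga8 to a list of podocyte and mesangium genes. The podocyte and mesangium list as a whole had a correlation of 0.34 with the average (0.10 without urothelium replicate 2). Of the 34 other endothelial genes, 18 had a correlation above 0.5, with a median of 0.52, against 10.7% of all other genes and a median of -0.06. The compartment means and the single array urothelium replicate 2 are shared by all of these values.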

How the data were processed

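RNA of 11 laser-captured pools was amplified, labelled with biotin and hybridised to Affymetrix arrays, as the protocols in the labels describe. Deposited were linear intensity values, 1 per probe set and array, made with GCOS (Affymetrix software), per the submitters' processing notes. That scaling was kept. A pseudocount of 55, near the 20th percentile, was added before log2, which understates changes of dim probe sets. The 64 controls were left out. Of 45101 probe sets, 34945 had 1 gene symbol, 932 several and 9160 none. The filter kept 29565 probe sets of 13614 genes. Compartment means were fitted with limma 3.58.1 in R 4.3.3, and p-values adjusted with Benjamini-Hochberg over all kept probe sets within each comparison. In simulated data for ureteral smooth muscle against the other 3 compartments, 200 of 29565 probe sets were changed, 100 by each size. There, 12% of log2 changes of 1.5 and 83% of changes of 3 were called. In the real data 9.53% of probe sets were called in this comparison. The adjusted threshold thus differs, and the simulated shares are not the power of the real comparison. The number of arrays limits the precision. Members and lists were chosen with earlier results of these data known. All members are given. From other lists, each gene by its brightest probe set, up to 4 called genes with the largest moderated statistic are named, besides Nrp1 and Angptl4, added after their values were seen, and the 10 genes most correlated with the members' average. Alternatives changed the pseudocount, filter, normalization, variance model or unit tested, blocked on the date-like label, or left out each array.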

Additional observations from a re-analysis of the deposited data

How the results depend on the processing

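No paired analysis was possible because the replicate numbers here only name the pools and pair none of them. Each result was recomputed under 20 alternatives, 11 of which left out 1 array. Of 78 recomputed values of the 4 called differences, 0 changed sign, 46 stayed called and 32 did not. The number of probe sets called in early proximal tubule against the other 3 compartments, 1 as reported, was 0 with the pseudocount at the 40th percentile (190), with no filter, with the filter at the 75th percentile (4 probe sets left) and with the label batch as a fixed block, and 0 to 1 when 1 array was left out. The number in ureteral smooth muscle against the other 3, also 1, was 0 with the pseudocount at the 5th percentile (11.7), with no filter and with the fixed block, and 0 to 2 when 1 array was left out. Between smooth muscle and proximal tubule, the count of 2 became 1 with the pseudocount at the 5th percentile and with the filter at the 75th percentile, 0 with the fixed block, and 0 to 2 when 1 array was left out. Counts of 0 as reported became 0 to 1 when 1 array was left out in smooth muscle against collecting duct, smooth muscle against urothelium and proximal tubule against collecting duct. With the filter at the 75th percentile, Flt1 1451756_at was no longer among the probe sets tested. Cd34 stayed called there by limma, against the other 3 compartments and against proximal tubule (adjusted p = 0.0256 and 0.0207). The cause of the other changes was not tested. With the label batch as a random block (correlation 0.0706) the same 4 differences were called. The difference of Cd34 in smooth muscle ranged from 1.60 to 2.21 and that of Flt1 (1451756_at) in proximal tubule from -2.13 to -1.11 (log2). Detection calls were not used here, so signal over background was not measured.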
